A study of Mus musculus with 7 samples.

Results

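The genes described are 7 members of the MHC class II pathway in mouse lung: Cd74, Ciita, H2-Aa, H2-Ab1, H2-Eb1, H2-DMa and H2-DMb1. They were taken by gene symbol from 22447 genes with a value in each library, and all 7 were among the 14057 genes that passed the filter on low values, which asked for at least 1 FPKM in at least 2 libraries. FPKM, the unit of all levels, gives sequenced fragments per length of transcript and per depth of the library. RNA sequencing covered 3 lung tumors of EZH2-overexpressing mice (OE tumors), 2 lungs labelled normal from mice of the same genotype (OE normal lung) and 2 lungs of wild-type mice (WT lung). EZH2 is the methyltransferase that places the repressive mark on lysine 27 of histone H3. The promoter that drives EZH2, the strain, the age and whether replicates came from separate animals are not given in the labels, and p-values therefore cover only the spread among the 7 libraries, which may be technical. The labels name lung tissue as the source but also describe minced nodules kept in culture, without saying which gave the RNA.

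MHC class II molecules present peptides from endocytosed proteins to CD4 T cells. An alpha and a beta chain (H2-Aa with H2-Ab1 in the A molecule, H2-Eb1 as the beta chain of the E molecule) assemble on the invariant chain Cd74, which fills the groove and guides the complex to endosomes. There cathepsins trim Cd74, and the DM heterodimer of H2-DMa and H2-DMb1 exchanges the remaining fragment for peptide, while the DO heterodimer of H2-Oa and H2-Ob inhibits DM. Ciita is the co-activator that class II promoters require. It does not bind DNA itself but joins the RFX complex, CREB and NF-Y on the X1, X2 and Y boxes. Dendritic cells, B cells and activated macrophages are the classical class II-positive cells, and alveolar type 2 cells, the surfactant-producing epithelium of the lung, carry class II as well.

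Promoter windows from RefSeq on GRCm38.p6, 250 bases before to 50 bases after the start of a gene, were available for 4 of the 7 members. They are shown because the X1, X2 and Y boxes are where Ciita acts, and the window of H2-Ob is set beside the members because its level moved the other way in the tumors. Capitals mark matches on either strand to AGNNAC followed directly by NNATG (the core of the X1 box), TGANGTCA (X2 box) and ATTGG (Y box, CCAAT on the other strand).
H2-Aa: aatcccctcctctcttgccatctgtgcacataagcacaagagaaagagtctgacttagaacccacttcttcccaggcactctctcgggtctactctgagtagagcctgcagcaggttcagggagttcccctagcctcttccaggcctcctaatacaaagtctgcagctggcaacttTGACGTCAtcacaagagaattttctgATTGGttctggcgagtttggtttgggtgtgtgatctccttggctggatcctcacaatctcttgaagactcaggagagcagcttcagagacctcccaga
H2-Eb1: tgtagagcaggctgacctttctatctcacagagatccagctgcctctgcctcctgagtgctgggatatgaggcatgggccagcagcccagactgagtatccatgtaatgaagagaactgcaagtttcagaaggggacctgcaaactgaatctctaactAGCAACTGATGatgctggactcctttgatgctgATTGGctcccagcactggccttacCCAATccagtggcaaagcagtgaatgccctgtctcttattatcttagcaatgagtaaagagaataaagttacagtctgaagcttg
H2-DMb1: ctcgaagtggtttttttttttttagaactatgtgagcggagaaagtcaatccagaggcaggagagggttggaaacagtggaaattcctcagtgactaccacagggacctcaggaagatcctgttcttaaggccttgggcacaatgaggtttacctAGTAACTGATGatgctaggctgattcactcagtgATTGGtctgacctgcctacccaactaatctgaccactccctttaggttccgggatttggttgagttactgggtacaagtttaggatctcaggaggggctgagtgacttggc
H2-Ob: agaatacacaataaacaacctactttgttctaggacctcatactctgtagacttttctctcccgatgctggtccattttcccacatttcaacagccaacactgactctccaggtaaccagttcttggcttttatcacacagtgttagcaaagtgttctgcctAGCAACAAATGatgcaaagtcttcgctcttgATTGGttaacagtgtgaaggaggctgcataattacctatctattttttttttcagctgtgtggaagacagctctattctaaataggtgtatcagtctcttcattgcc
The windows lie at chr17:34287774-34288073 on the minus strand for H2-Aa, and on the plus strand at chr17:34305617-34305916 for H2-Eb1, chr17:34152941-34153240 for H2-DMb1 and chr17:34238655-34238954 for H2-Ob. In the H2-Aa window the X2 match began 74 bases and the Y match 48 bases before the start. In H2-Eb1 the X1 match began at 92 bases and the first Y match at 59 bases, with a second Y match on the other strand at 35 bases. In H2-DMb1 the X1 and Y matches began at 95 and 61 bases, and in H2-Ob at 88 and 57 bases, so the order and approximate spacing of X1 and Y were alike in the 3 genes. No matches overlapped. Among 32851 windows of the same length 3.09% held the X1 core, 8.83% the X2 box and 37.4% the Y box, while 1.42% held X1 with Y and 3.25% X2 with Y. The first of 2 windows of H2-DMa held none of these letters, and the second held a Y match alone, 198 bases before the start.

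Ezh2 averaged 18.2 ± 8.43 FPKM in OE tumors, 10.8 ± 0.950 FPKM in OE normal lung, against 3.15 ± 0.809 FPKM in WT lung (SD, n = 3, 2 and 2). It was 8.48, 23.5 and 22.6 FPKM in tumors 1, 2 and 3, with tumor 1 under the 10.2 and 11.5 FPKM of the OE normal lungs. No read totals were used. From the spacing of low values, tumor 1 was the shallowest library, and the deepest had 1.87 times its depth. FPKM summed to 405166 to 503550 per library.

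The 2 chains of the A molecule were among the most abundant of the 7 members. H2-Aa was at 712, 735 and 837 FPKM in tumors 1, 2 and 3, at 534 and 727 FPKM in OE normal lungs 1 and 2, and at 485 and 299 FPKM in WT lungs 1 and 2. H2-Ab1 was at 664, 480 and 555 FPKM in the tumors, at 412 and 554 FPKM in OE normal lung and at 391 and 238 FPKM in WT lung. For both genes every tumor lay above both WT lungs, while OE normal 2 lay among the tumors. H2-Eb1, the E beta chain, was at 409, 377 and 417 FPKM in the tumors, at 276 and 442 FPKM in OE normal lung and at 260 and 154 FPKM in WT lung. Its highest library was OE normal 2, so here too the tumors overlapped OE normal lung and not WT lung.

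Cd74, the invariant chain, was at 2365, 2158 and 2385 FPKM in the tumors, at 1366 and 1811 FPKM in OE normal lung and at 1255 and 689 FPKM in WT lung. The 3 groups did not overlap, with the tumors highest and the WT lungs lowest. H2-DMa was at 113, 98.6 and 104 FPKM in the tumors, at 61.5 and 84.9 FPKM in OE normal lung and at 59.5 and 33.7 FPKM in WT lung. H2-DMb1 was at 137, 106 and 108 FPKM in the tumors, at 56.2 and 69.4 FPKM in OE normal lung and at 55.9 and 35.0 FPKM in WT lung. Both DM chains therefore followed the same order of groups as Cd74, although OE normal 1 and WT 1 were nearly equal for H2-DMb1. H2-DMb1 and its neighbor H2-DMb2 are close copies whose reads the authors' counting could divide. Their summed level was 201, 128 and 131 FPKM in the tumors, at 83.0 and 120 FPKM in OE normal lung and at 78.1 and 46.6 FPKM in WT lung, again with no overlap between tumors and either kind of normal lung. Ciita was the least abundant member, at 18.6, 14.5 and 13.3 FPKM in the tumors, at 11.3 and 14.7 FPKM in OE normal lung and at 7.65 and 3.25 FPKM in WT lung. OE normal 2 lay above tumors 2 and 3, and both WT lungs lay below every other library.

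**Figure D1:**
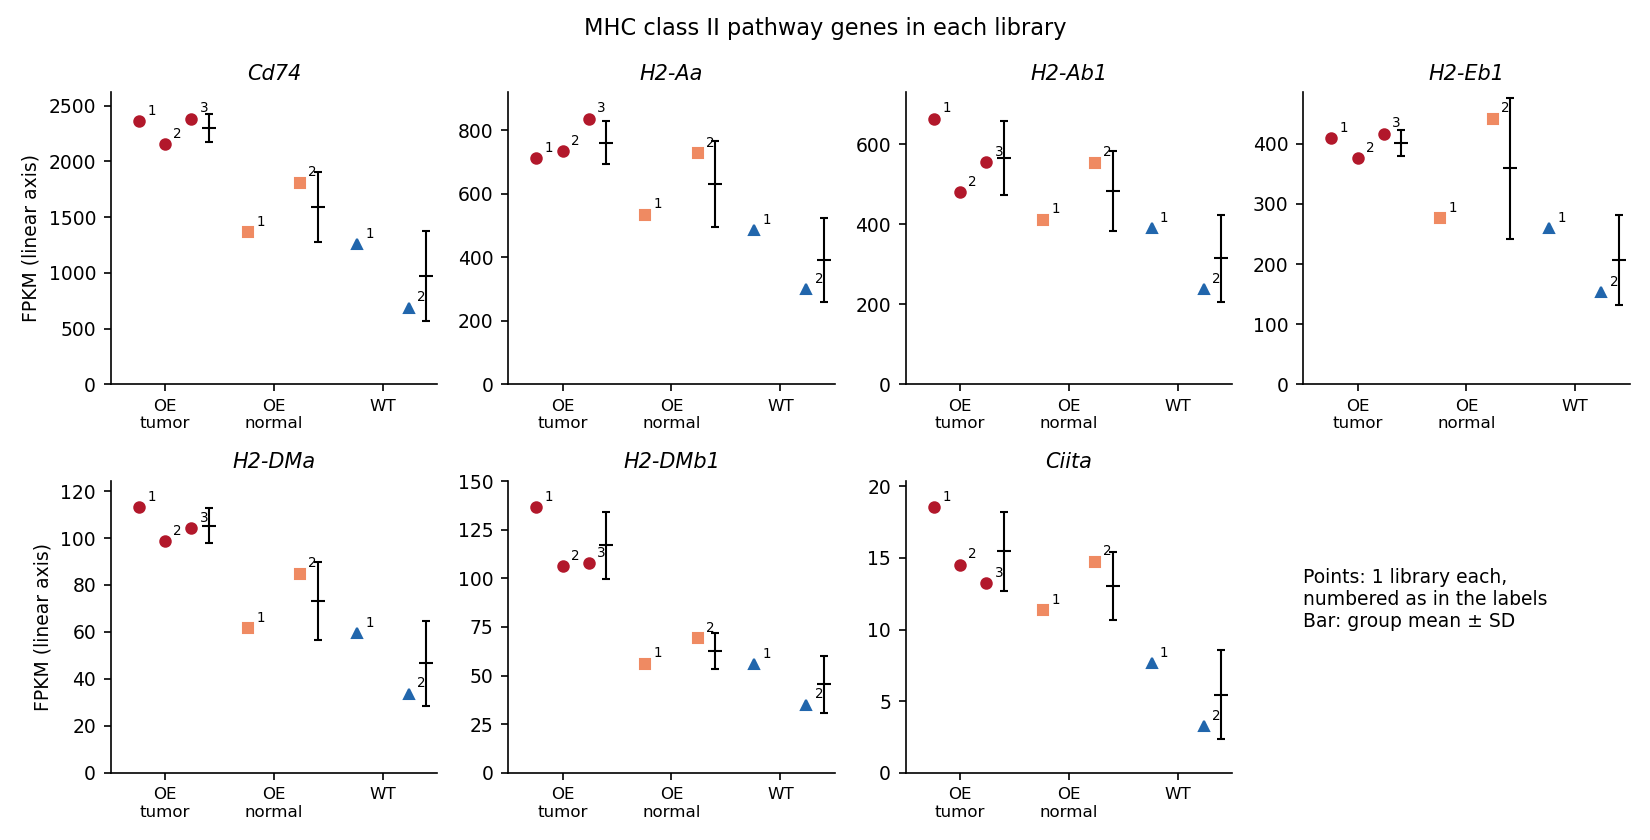
FPKM of the 7 MHC class II members on linear axes from 0, 1 point per library for OE tumors, OE normal lung and WT lung, numbered as in the labels, with the group mean ± SD as a bar (n = 3, 2 and 2). WT 2 is the lowest point in all 7 panels, and the tumors lie above both WT lungs in each.

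The level of one member over another followed nearly the same order everywhere. In 7 of 7 libraries Cd74 exceeded H2-Aa, H2-Aa exceeded H2-Ab1, H2-Ab1 exceeded H2-Eb1, H2-Eb1 exceeded H2-DMb1 and H2-DMa exceeded Ciita, on the FPKM scale, which is per length. Only the neighbors H2-DMb1 and H2-DMa changed places, with H2-DMb1 higher in 4 of 7 libraries. The members also shared the differences between replicates. WT 1 was above WT 2 for 7 of 7 members, by 1.60 to 2.35 times, and OE normal 2 was above OE normal 1 for 7 of 7, by 1.24 to 1.60 times. The tumors were closer, with tumor 1 at 0.968 to 1.38 times tumor 2 and tumor 3 at 0.912 to 1.16 times tumor 2. Across the 7 libraries, which include the group differences, Pearson's r on the log2 scale between pairs of members ran from 0.860 (H2-Eb1 with H2-DMb1) to 0.997 (Cd74 with H2-DMa), with a median of 0.957 over 21 pairs, given as a description.

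Ratios within a library show where members moved unequally. Cd74 stood at 3.98, 4.07 and 3.96 times the mean of H2-Aa, H2-Ab1 and H2-Eb1 in the tumors, 3.35 and 3.15 times in OE normal lung and 3.32 and 2.99 times in WT lung. H2-DMb1 stood at 0.230, 0.200 and 0.179 of that mean in the tumors, 0.138 and 0.121 in OE normal lung and 0.148 and 0.152 in WT lung. H2-DMa stood at 0.190, 0.186 and 0.173 of it in the tumors, 0.151 and 0.148 in OE normal lung and 0.157 and 0.147 in WT lung. All 3 ratios were higher in every tumor than in any normal lung, so the invariant chain and the DM chains were higher relative to the antigen-presenting chains. Ciita over the same mean was 0.0312, 0.0274 and 0.0220 in the tumors, 0.0278 and 0.0257 in OE normal lung and 0.0202 and 0.0141 in WT lung, and there tumors and OE normal lung overlapped. H2-Aa over H2-Ab1 was 1.07 in tumor 1 but 1.53 and 1.51 in tumors 2 and 3, against 1.30 and 1.31 in OE normal lung and 1.24 and 1.25 in WT lung. These class II genes are highly polymorphic, and the genome build the authors used is of C57BL/6J, so the mapping of reads from another haplotype could differ. Its part in these ratios was not tested.

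Set against OE normal lung, lung of the same genotype, the tumors had a higher level of H2-DMb1, and the other 6 members did not pass the test. In limma on log2(FPKM + 1), with Benjamini-Hochberg adjustment over all 14057 genes, 1 of 7 members was called higher at adjusted p under 0.05 and 0 lower. Over all genes 13.1% were called higher and 24.9% lower. H2-DMb1 averaged 117 ± 17.1 FPKM in OE tumors and 62.8 ± 9.34 FPKM in OE normal lung (SD, n = 3 and 2), a log2 difference of 0.89 (SE 0.24, limma adjusted p = 0.0284). The call was lost, with the count of members at 0, when tumor 2, tumor 3, OE normal 1 or OE normal 2 was left out. Cd74 differed by 0.55 (SE 0.30, limma adjusted p = 0.193) and H2-DMa by 0.53 (SE 0.26, limma adjusted p = 0.156), with 95% intervals of -0.18 to 1.27 and -0.10 to 1.17. Together with H2-DMb1 they make 3 of 7 members whose tumors all lay above OE normal lung, as did 25.0% of all genes. The chains gave 0.28 for H2-Aa, 0.23 for H2-Ab1 and 0.20 for H2-Eb1, and Ciita gave 0.23, with limma adjusted p between 0.416 and 0.619. Quantile normalization turned the values of H2-Aa, H2-Ab1 and H2-Eb1 negative, as did rescaling to TPM, and leaving out OE normal 1, for H2-Eb1. The members' median difference was 0.28, against -0.11 over all genes, and under quantile normalization both medians were 0.13.

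Set against WT lung, the tumors had higher levels of all 7 members. In limma 7 of 7 were called higher, against 15.0% of all genes called higher and 23.2% lower. Ciita averaged 15.5 ± 2.76 FPKM in OE tumors and 5.45 ± 3.11 FPKM in WT lung (SD, n = 3 and 2), a log2 difference of 1.43 (SE 0.32, limma adjusted p = 0.0168) and the largest of the 7. H2-DMb1 differed by 1.37 (SE 0.24, limma adjusted p = 0.00609), Cd74 by 1.31 (SE 0.30, limma adjusted p = 0.0172) and H2-DMa by 1.21 (SE 0.26, limma adjusted p = 0.0144). The presenting chains gave 0.99 for H2-Aa, 1.00 for H2-Eb1 and 0.88 for H2-Ab1, with limma adjusted p of 0.0262, 0.0374 and 0.0482. As folds of group means the 7 members lay between 1.80 (H2-Ab1) and 2.83 (Ciita). All 7 had every tumor above both WT lungs, as did 28.9% of all genes, and their median difference was 1.21 against -0.06 over all genes. The count rested on WT 2, the lowest library for every member: without it 1 of 7 was called higher, H2-DMb1. Without tumor 3 the count was 3 and without tumor 2 it was 4, whereas it was 7 without WT 1. Both comparisons use the same 3 tumors.

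OE normal lung was not separated from WT lung by the test for any member. In limma 0 of 7 members and 0 of 14057 genes were called (0%), and 1208 genes had an unadjusted p under 0.05. With tumor 1 left out of the fit, whose spread is shared by the groups, 290 genes were called at adjusted p under 0.05, none of them a member. In that fit 3071 genes had an unadjusted p under 0.05. In the main fit, with tumor 1 kept, 3 of 7 members had an unadjusted p under 0.05 in limma, all higher. So did 6.13% of all genes in that direction. These 3 members are given next. They were Ciita (log2 difference 1.20, 95% interval 0.34 to 2.06, limma adjusted p = 0.378), H2-Eb1 (0.80, 0.03 to 1.57, limma adjusted p = 0.555) and H2-Aa (0.71, 0.03 to 1.40, limma adjusted p = 0.557). The other intervals were -0.04 to 1.55 for Cd74, -0.02 to 1.38 for H2-DMa, -0.09 to 1.38 for H2-Ab1 and -0.14 to 1.11 for H2-DMb1. Each includes 0, and a difference of any size within its interval remains compatible with the values of that gene. All 7 members had both OE normal lungs above both WT lungs, as did 29.6% of all genes (23.1% had both below), and for H2-DMb1 the gap was 56.2 against 55.9 FPKM. As folds of means they lay between 1.38 (H2-DMb1) and 2.39 (Ciita). Most genes in lists of other immune genes had the same order of the groups, with 0 genes called in each list. Both OE normal lungs lay above both WT lungs for 8 of 8 class I genes (median difference 0.94), 11 of 12 genes of the interferon-γ axis (0.91), 9 of 10 B cell genes (2.02), 7 of 9 T and NK cell genes (1.11) and 10 of 14 macrophage genes (1.16). Among dendritic cell genes the order held for 6 of 11 (median difference 0.46). In the dendritic list 1 gene had both OE normal lungs below both WT lungs, and so did 1 in the macrophage list. The members' median difference was 0.71, against 0.02 over all genes. The part of immune cells in the members' difference was not tested.

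**Figure D2:**
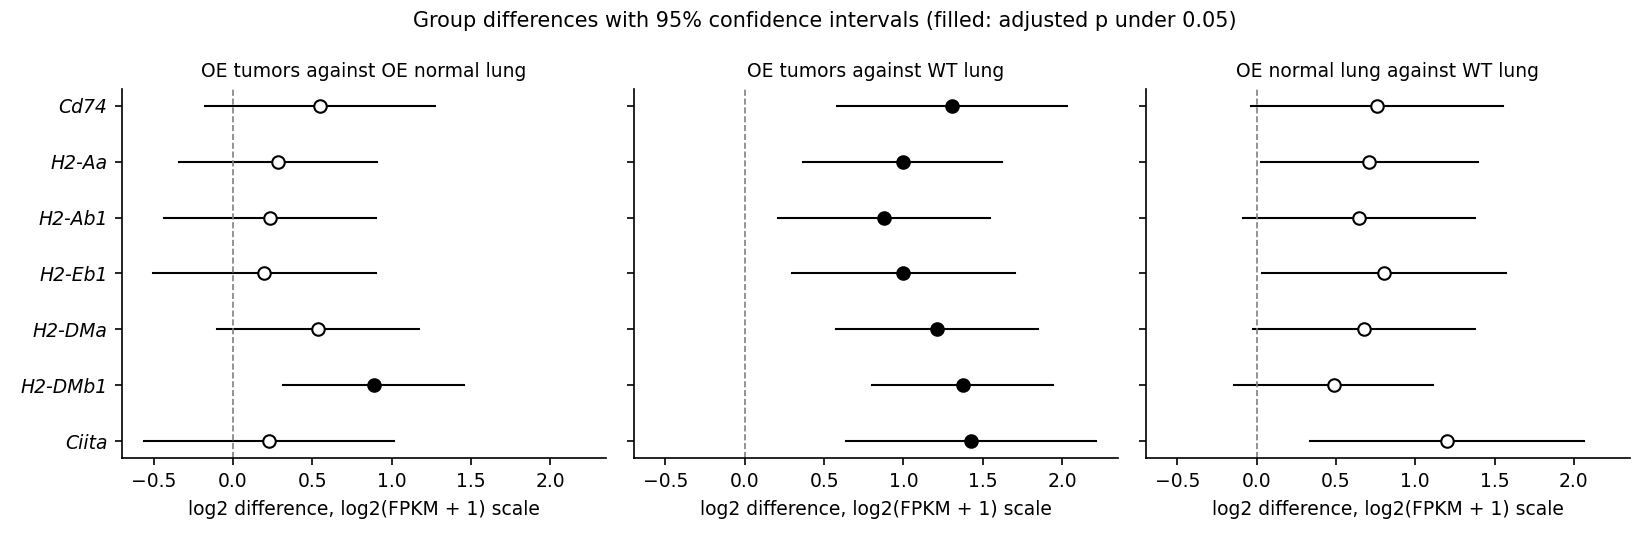
Log2 differences of the 7 members on the log2(FPKM + 1) scale with their 95% intervals from limma, for OE tumors against OE normal lung, OE tumors against WT lung and OE normal lung against WT lung. All 7 intervals for tumors against WT lung lie above 0, whereas for tumors against OE normal lung only that of H2-DMb1 does.

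The remaining class II genes of the locus were lower in the tumors or varied within groups. H2-Oa and H2-Ob, the chains of the DM inhibitor DO, both fell in the tumors. H2-Ob was at 0.882, 0.575 and 0.722 FPKM in the tumors, at 15.4 and 28.3 FPKM in OE normal lung and at 10.7 and 5.88 FPKM in WT lung. Its log2 difference was -3.67 (SE 0.32, limma adjusted p = 6.14e-04) against OE normal lung and -2.38 (SE 0.32, limma adjusted p = 0.00263) against WT lung. H2-Oa was at 2.13, 2.60 and 3.27 FPKM in the tumors, at 11.4 and 12.7 FPKM in OE normal lung and at 7.28 and 4.08 FPKM in WT lung. Its differences were -1.84 (SE 0.25, limma adjusted p = 0.00247) and -0.83 (SE 0.25, limma adjusted p = 0.0406). No tumor reached the level of any normal lung for either chain (35.9% of all genes were lower without overlap against OE normal lung and 35.0% against WT lung). The windows of both DO chains hold matches to X1 and Y, at 88 and 57 bases before the start in H2-Ob and farther apart, at 141 and 43 bases, in H2-Oa. H2-DMa accordingly stood at 53.2, 37.9 and 31.9 times H2-Oa in the tumors, against 5.38 and 6.68 times in OE normal lung and 8.16 and 8.27 times in WT lung, a ratio chosen after its values were seen. H2-DMb2, the second DM beta gene, was at 64.7, 22.1 and 23.5 FPKM in the tumors, at 26.8 and 50.7 FPKM in OE normal lung and at 22.2 and 11.6 FPKM in WT lung. Its tumors overlapped both kinds of normal lung. H2-Eb2 was at 2.62 FPKM in tumor 1 but 0.127 and 0.131 FPKM in tumors 2 and 3, against 2.96 and 4.41 FPKM in OE normal lung and at 2.02 and 0.604 FPKM in WT lung. Neither passed the test in any comparison. For each of the 4 tested genes of this list both OE normal lungs lay above both WT lungs, as did 29.6% of all genes. In the tumors 24.9% of all genes were called lower than OE normal lung and 23.2% lower than WT lung. Of the 4 genes tested, 2 thus fell in each comparison with tumors, and against WT lung this was 1 without tumor 2, tumor 3, either OE normal lung or WT 1.

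H2-Ea-ps, the E alpha gene, set tumor 1 apart from every other library. It was at 397 FPKM in tumor 1 and at 0.813 and 0.468 FPKM in tumors 2 and 3, against 0.125 and 0.0801 FPKM in OE normal lung and at 0.102 and 0.289 FPKM in WT lung. The value in tumor 1 was close to the 409 FPKM of H2-Eb1, its pairing partner, in the same library. In C57BL/6 mice E alpha is not transcribed because of a promoter deletion, and other haplotypes express it. The strain of each library is not given in the labels, and the part of strain in this value was not tested. The gene reached 1 FPKM in 1 library and so failed the filter.

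**Figure D3:**
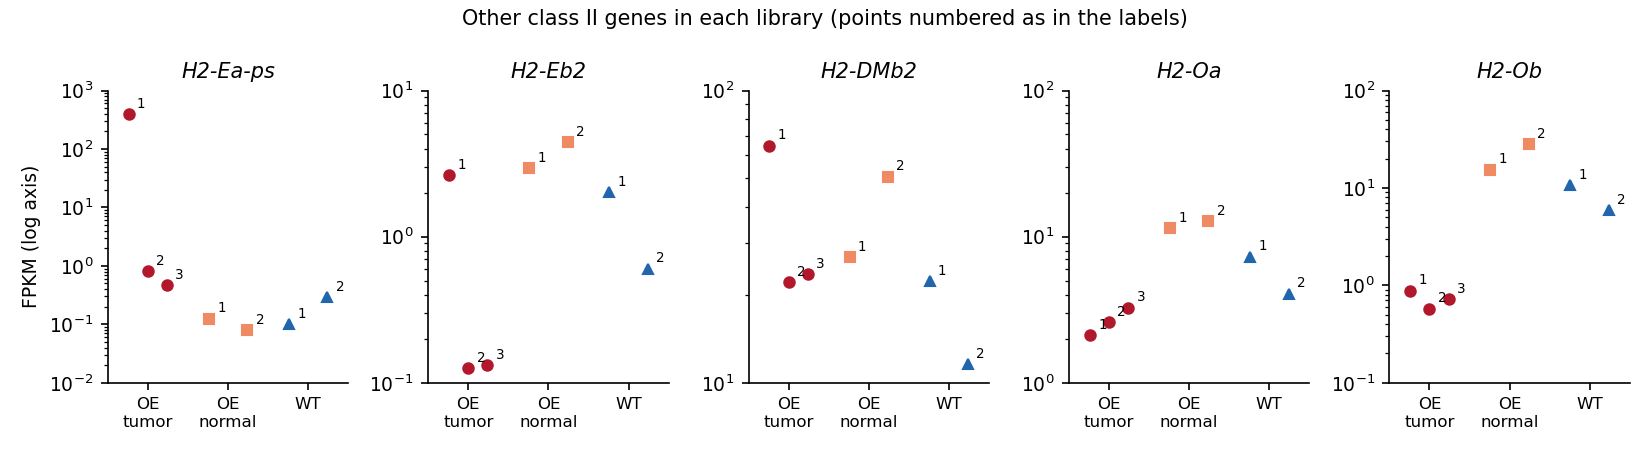
FPKM of the other class II genes by library on a log axis, for OE tumors, OE normal lung and WT lung. H2-Oa and H2-Ob lie lower in every tumor than in any normal lung, and H2-Ea-ps is at 397 FPKM in tumor 1 and below 1 FPKM in the other 6 libraries.

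Genes that process class II cargo were in part higher in the tumors, with 4 of 9 higher and 0 lower against OE normal lung and 5 of 9 higher and 0 lower against WT lung in limma. Their median difference was 0.32 and 1.39. Of all genes 13.1% were called higher than OE normal lung and 15.0% higher than WT lung. Ctsh, a lysosomal cathepsin that is also abundant in alveolar type 2 cells, was at 1252, 1092 and 1080 FPKM in the tumors, at 133 and 119 FPKM in OE normal lung and at 192 and 128 FPKM in WT lung. It rose by 3.17 (SE 0.20, limma adjusted p = 3.01e-04) and 2.85 (SE 0.20, limma adjusted p = 3.17e-04). Ifi30, the thiol reductase that opens disulfide bonds of antigens, rose by 0.99 (limma adjusted p = 0.0164) and 1.52 (limma adjusted p = 0.00352). The protease Ctsd and the asparaginyl endopeptidase Lgmn also rose in both comparisons, by 1.25 and 1.78 for Ctsd and 1.14 and 1.39 for Lgmn. Ctss, the cathepsin that makes the final cuts in the invariant chain in antigen-presenting cells, was at 331, 142 and 222 FPKM in the tumors, at 146 and 208 FPKM in OE normal lung and at 79.9 and 46.5 FPKM in WT lung. It rose against WT lung (1.82, limma adjusted p = 0.0163) and gave 0.32 against OE normal lung (limma adjusted p = 0.560), where the groups overlapped. Against OE normal lung the count of 4 was 1 without OE normal 1, 2 without tumor 2 and 2 without OE normal 2.

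The DNA-binding factors of class II promoters differed little. Of Rfx5, Rfxank, Rfxap, Creb1, Nfya, Nfyb and Nfyc, 0 of 7 passed against OE normal lung in limma, with 38.1% of all genes called in either direction, and their differences ran from -0.31 to 0.51. Without tumor 1 the same count was 1 higher and 4 lower. Against WT lung, where 38.2% of all genes were called in either direction, 1 of 7 was higher, Nfya, an NF-Y subunit, at 22.2, 18.6 and 17.6 FPKM in the tumors and 14.4 and 12.0 FPKM in WT lung (0.53, SE 0.16, limma adjusted p = 0.0443). It was 2 higher and 2 lower without tumor 1, and 0 higher without any one of the other libraries. Rfxank, which is in the RFX complex, gave 0.68 against WT lung (limma adjusted p = 0.0750) and was at 3.76 FPKM in tumor 1 but at 6.69 and 6.98 FPKM in tumors 2 and 3. The summed level of the 7 factors was 63.3 to 78.2 FPKM in the tumors, 66.7 to 71.3 FPKM in OE normal lung and from 61.8 to 65.2 FPKM in WT lung. Unlike Ciita, the sum in the tumors overlapped that in WT lung. As for Ciita, both OE normal lungs lay above both WT lungs.

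MHC class I genes, which present peptides from the cytosol to CD8 T cells, were lower in the tumors, whereas between OE normal and WT lung they had the same order as the members. Against OE normal lung 8 of 8 fell in limma, with a median difference of -1.72 (24.9% of all genes were called lower). Against WT lung 3 of 8 fell, with a median of -0.96 (23.2% of all genes). B2m, the light chain of class I, was at 448, 363 and 738 FPKM in the tumors, at 1838 and 2231 FPKM in OE normal lung and at 1216 and 774 FPKM in WT lung. It fell against OE normal lung by 2.03 (SE 0.36, limma adjusted p = 0.00643) and gave -0.97 against WT lung (limma adjusted p = 0.0760). The heavy chain H2-K1 was at 189, 256 and 485 FPKM in the tumors, at 955 and 1189.9 FPKM in OE normal lung and at 703 and 484 FPKM in WT lung. Cd74 accordingly stood at 5.28, 5.94 and 3.23 times B2m in the tumors, against 0.743 and 0.812 times in OE normal lung and 1.03 and 0.890 times in WT lung, a ratio chosen after its values were seen. Psmb9, an immunoproteasome subunit, fell in both comparisons (-2.16 and -1.15, limma adjusted p = 0.00293 and 0.0281). Against OE normal lung the count was below 8 without OE normal 2. Against WT lung it moved both ways, to 6 without tumor 3 and to below 3 at its lowest over the alternative fits.

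Genes of the interferon-γ axis, which induces Ciita in many cell types, were lower in the tumors as well. In limma 10 of 12 fell and 0 rose against OE normal lung, and 5 of 12 fell and 0 rose against WT lung. The median differences were -1.98 and -0.92, and 24.9% and 23.2% of all genes were called lower. Gbp2, an interferon-induced GTPase, was at 3.97, 2.55 and 4.33 FPKM in the tumors, at 41.1 and 64.6 FPKM in OE normal lung and at 21.1 and 15.1 FPKM in WT lung (log2 differences -3.53 and -2.05, limma adjusted p = 4.50e-04 and 0.00268). The transcription factor Irf1 was at 21.0, 12.3 and 15.3 FPKM in the tumors, at 60.1 and 69.7 FPKM in OE normal lung and at 52.7 and 46.4 FPKM in WT lung (-1.97 and -1.58, limma adjusted p = 0.00140 and 0.00306). Nlrc5, the co-activator of class I genes and a relative of Ciita, fell by 2.43 against OE normal lung (limma adjusted p = 0.00319) and gave -1.08 against WT lung (limma adjusted p = 0.0538). Between OE normal and WT lung Nlrc5 gave 1.35 (limma adjusted p = 0.349), beside 1.20 for Ciita (limma adjusted p = 0.378). Ifng itself failed the filter, with 0 to 0.114 FPKM in the tumors, at 0.412 and 1.48 FPKM in OE normal lung and at 0.357 and 0.106 FPKM in WT lung. The count against WT lung was 2 without tumor 2, WT 1 or WT 2 and 3 without tumor 3.

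Genes for surface ligands and receptors through which antigen-presenting cells signal to and from T cells were lower in part. They include the activating ligands Cd80 and Cd86 and the inhibitory ligand Cd274 (PD-L1). Against OE normal lung 4 of 5 fell (Cd40, Cd274, Icosl and Cd86) and against WT lung 2 of 5 (Cd40 and Icosl) in limma. Beside this, 24.9% and 23.2% of all genes were called lower. Cd40 was at 1.20, 1.29 and 1.83 FPKM in the tumors, at 11.3 and 11.2 FPKM in OE normal lung and at 8.14 and 6.33 FPKM in WT lung (log2 differences -2.34 and -1.76, limma adjusted p = 3.86e-04 and 8.58e-04). The first count was 2 without OE normal 1 or OE normal 2, and the second was 1 without tumor 2, tumor 3 or WT 1.

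**Figure D4:**
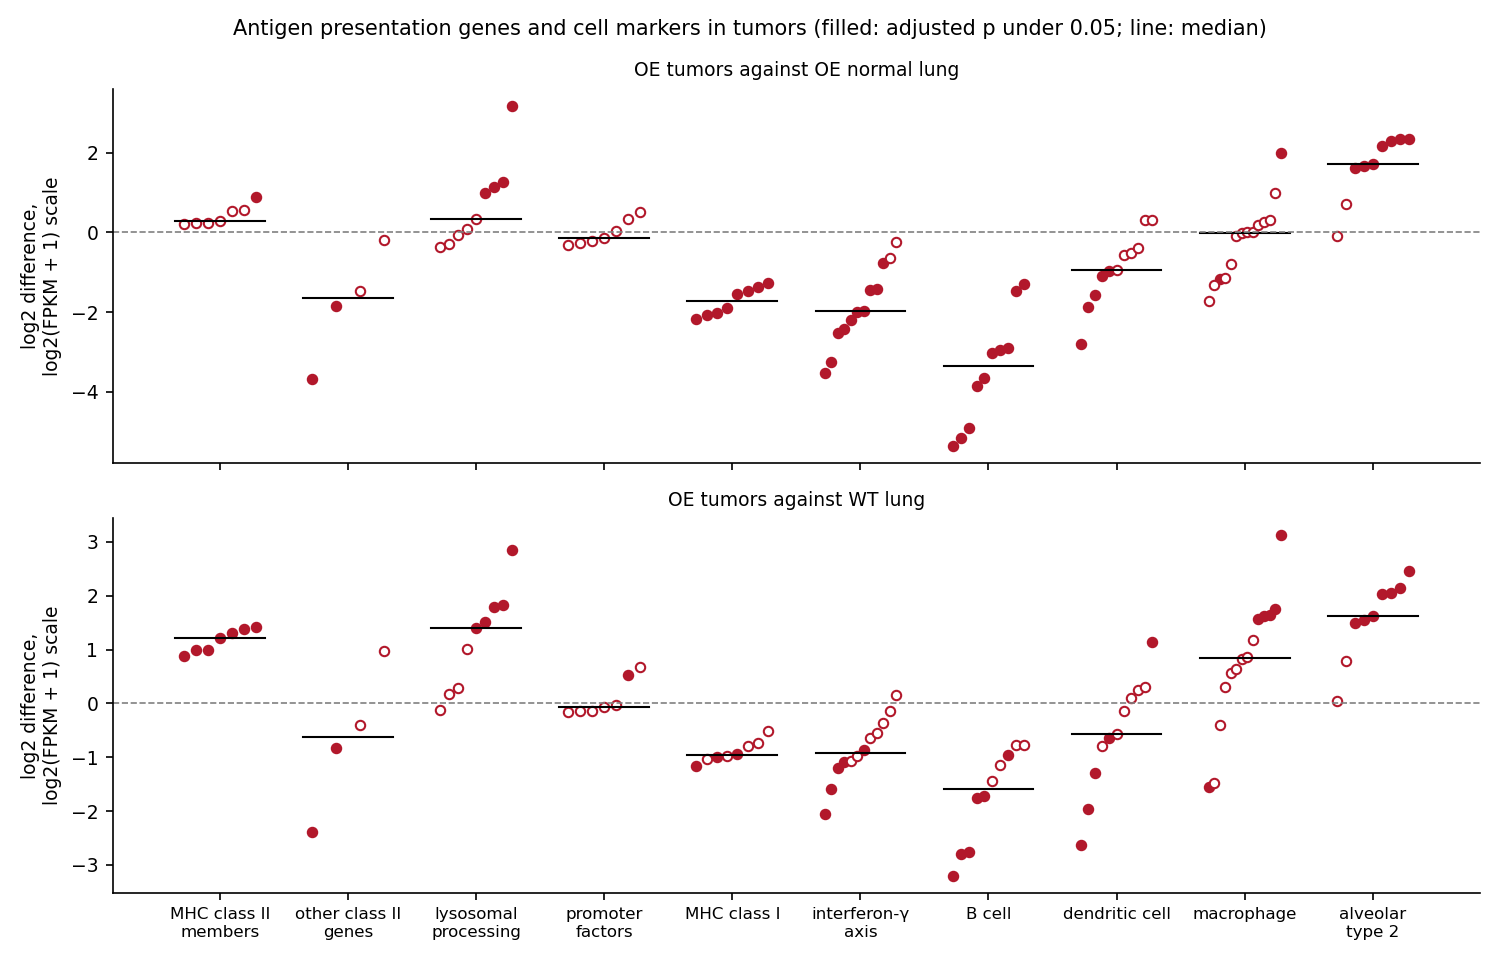
Log2 differences on the log2(FPKM + 1) scale for each tested gene of the members and of other antigen presentation and cell marker lists, for OE tumors against OE normal lung (top) and against WT lung (bottom). Filled points have a limma adjusted p under 0.05, the line is the median of the plotted genes, and Sftpc, which was listed at 0 in 2 tumors, is left out of the alveolar type 2 list; 8 of 8 class I genes lie below 0 where the members lie above it.

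Markers of cells that carry class II moved in different directions, and in bulk samples fewer cells of a type and less RNA per cell cannot be told apart. B cell genes fell, 10 of 10 against OE normal lung and 6 of 10 against WT lung in limma, beside 24.9% and 23.2% of all genes. Their summed level was 15.6 to 24.9 FPKM in the tumors, 189.6 to 647 FPKM in OE normal lung and from 56.5 to 105 FPKM in WT lung. Cd79a, a signaling chain beside the B cell's antigen receptor, was at 1.58, 0.272 and 0.878 FPKM in the tumors, and Pax5, which defines the B lineage, was listed at 0 in tumor 3. The summed level of the 7 members was 3969.6 to 4418 FPKM in the tumors, 2717 to 3702 FPKM in OE normal lung and from 1451 to 2513 FPKM in WT lung. Every tumor had a higher member sum and a lower B cell sum than any normal lung, while the 4 normal lungs had the same order for both sums. Against OE normal lung the B cell count was below 10 at its lowest over the alternative fits. Against WT lung the B cell count was 0 without WT 1, and 3 without tumor 2, tumor 3 or WT 2.

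Among dendritic cell genes 5 of 11 fell and 0 rose against OE normal lung, and 4 fell and 1 rose against WT lung. The shares of all genes called lower were 24.9% and 23.2%, and of those called higher 13.1% and 15.0%. The summed level of the list was 25.8 to 44.1 FPKM in the tumors, 59.2 to 67.5 FPKM in OE normal lung and from 42.7 to 49.4 FPKM in WT lung. Clec9a, a receptor of cross-presenting dendritic cells, was at 1.12, 0.565 and 0.757 FPKM in the tumors, against 14.6 and 9.15 FPKM in OE normal lung and at 9.81 and 10.4 FPKM in WT lung. Itgax, the integrin CD11c that alveolar macrophages share with dendritic cells, was the one that rose against WT lung (1.14, limma adjusted p = 0.0425), a call lost without tumor 3, either OE normal lung or either WT lung. The count of dendritic genes that fell was 3 without OE normal 2 in the first comparison, and 2 without tumor 2, tumor 3 or WT 1 in the second.

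Macrophage genes gave 1 of 14 higher and 1 lower against OE normal lung, and 5 higher and 1 lower against WT lung in limma. In these comparisons 13.1% and 15.0% of all genes were called higher, and 24.9% and 23.2% lower. C1qb, a complement chain made by tissue macrophages, was at 97.2, 72.2 and 89.3 FPKM in the tumors, at 61.6 and 118 FPKM in OE normal lung and at 32.8 and 18.6 FPKM in WT lung. It rose against WT lung (1.75, limma adjusted p = 0.0106) and gave 0.01 against OE normal lung. The summed level of the list was 1222 to 3964 FPKM in the tumors, 3370 to 4521 FPKM in OE normal lung and from 2513 to 3693 FPKM in WT lung. Most of that sum was Lyz2 and Chi3l3. Lyz2 was at 2400, 577 and 728 FPKM in the tumors, at 4003 and 2722 FPKM in OE normal lung and at 3417 and 2312 FPKM in WT lung. The median difference of the 14 genes was -0.01 against OE normal lung and 0.85 against WT lung. Without WT 2 the count higher than WT lung was 1, and without tumor 3 it was 3; without tumor 1, 5 genes were lower than OE normal lung. The gene higher than OE normal lung was not called without tumor 3, OE normal 1 or OE normal 2.

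Alveolar type 2 genes rose, 7 of 10 in each comparison with 0 lower in limma, beside 13.1% (OE normal lung) and 15.0% (WT lung) of all genes. In both comparisons the count higher was below 7 at its lowest over the alternative fits. The count lower was above 0 at its highest. Sftpd, a surfactant protein, was at 2453, 1383 and 1449 FPKM in the tumors, at 363 and 307 FPKM in OE normal lung and at 455 and 329 FPKM in WT lung. The summed level of the list was 12978 to 43944 FPKM in the tumors, 12669 to 17428 FPKM in OE normal lung and from 15498 to 19291 FPKM in WT lung, most of it Sftpc in the libraries where that gene was not listed at 0. Sftpc was listed at 0 in tumors 2 and 3 and at 35944 FPKM in tumor 1. Its log2 difference was -8.54 against OE normal lung and -8.77 against WT lung. With an SE of 4.54 in each, it was called in neither. The airway gene Scgb1a1 was listed at 0 in both OE normal lungs and both WT lungs. In tumors 1, 2 and 3 it was at 2227, 56.3 and 1095 FPKM. Whether a listed 0 means that the transcript was absent was not tested. T and NK cell genes fell, 9 of 9 against OE normal lung and 6 of 9 against WT lung, and endothelial genes fell, 10 of 10 in both. The shares of all genes called lower were 24.9% and 23.2%. Against OE normal lung the T and NK cell count was below 9 at its lowest over the alternative fits. Against WT lung the T and NK cell count was 3 without tumor 2 and lower still without WT 1. The part of each cell type in the level of the members was not tested.

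The 5 genes whose pattern over the 7 libraries was most like that of Ciita, by Pearson's r on the log2 scale among 11175 genes, were Tnpo1 (0.996), Birc5 (0.982), Tk1 (0.975), Mib1 (0.974) and H2-Ab1 (0.968). Tnpo1, a nuclear import receptor, was at 15.3, 13.0 and 12.5 FPKM in the tumors, at 11.1 and 13.7 FPKM in OE normal lung and at 9.07 and 6.29 FPKM in WT lung. Birc5 and Tk1 are genes of dividing cells. For H2-Ab1 the 5 were Ccrn4l (0.976), Tnpo1 (0.974), Sdf2l1 (0.973), Fcgr2b (0.969) and Cotl1 (0.969). Fcgr2b, the inhibitory receptor for IgG on B cells and macrophages, was at 75.7, 30.5 and 36.0 FPKM in the tumors, at 18.5 and 49.2 FPKM in OE normal lung and at 15.5 and 7.70 FPKM in WT lung. With 7 libraries these are the highest values of many compared and are given as a description.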

How the data were processed

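RNA sequencing values of 7 mouse lung libraries were used as the authors deposited them, as FPKM per gene symbol. Per the submitters' processing notes the authors used TopHat2 or TopHat and Cufflinks 2.0.0 on mm9. The annotation and strand setting used, like the read totals, are unknown from these sources. The files carry no coordinates, and precision comes from the spread between replicates alone. In each file 27 of 22474 entries had a date in place of a symbol and were left out, leaving 22447 genes. The members and gene lists were chosen with earlier results of these data known.

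Values were transformed to log2(FPKM + 1), which understates changes of low genes. The 14057 genes that reached 1 FPKM in 2 or more libraries entered limma 3.58.1 under R 4.3.3 (mean-variance trend, 2-sided), with 7 libraries in 3 groups from the labels and Benjamini-Hochberg adjustment. The procedure was tested on simulated data. Named genes were all members, every other class II gene of the locus, and up to 4 called genes per list without overlap of the groups and with 5 FPKM or more in the higher mean, of which some are not reported here. Other genes named in the text were chosen after their values were seen. Likeness was computed among genes that reached 5 FPKM somewhere. Of the 16 alternatives, 7 left out a library each. The others rescaled values (TPM, quantile normalization or median-of-ratios), lowered the pseudocount to 0.1, dropped the filter or raised it to 5 FPKM, omitted the trend, fitted the compared groups alone, or added a replicate block. Promoter sequences are from RefSeq (GRCm38.p6), another build than that of the files. Plots were made in Python 3.11.15 with matplotlib 3.10.9.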

Additional observations from a re-analysis of the deposited data

Results flagged for a closer look

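H2-Ea-ps was at 397 FPKM in OE tumor 1 and below 1 FPKM in the other 6 libraries. It stands here because it failed the filter and so was in no comparison, while its level in that library lay above that of every normal lung. Its cause was not tested.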

How the results depend on the processing

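For OE tumors against OE normal lung the members called higher numbered 1 as reported, 0 with no filter, with rescaling to TPM and with the replicate block, and 0 to 1 with 1 library left out. H2-DMb1 passed in 9 of 16 alternatives. H2-Eb1 became -0.034 with TPM and lay between -0.14 and 0.53 with 1 library left out (-0.14 without OE normal 1), and quantile normalization gave -0.15 for H2-Aa, -0.15 for H2-Ab1 and -0.048 for H2-Eb1. For OE tumors against WT lung the members called higher numbered 7 as reported, 3 with no filter, 4 with quantile normalization, 2 with the replicate block, and 1 to 7 with 1 library left out. The 7 differences stayed positive in all 16 alternatives, and passed in 16 for H2-DMb1, 15 for Ciita, 14 for H2-DMa, 12 for Cd74, 10 for H2-Aa, 10 for H2-Eb1 and 5 for H2-Ab1. Causes of these changes were not tested.

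The labels do not say whether replicate numbers pair the samples, and tumor 3 has no partner in the block. The correlation of same-numbered libraries' deviations from their group means ran from -0.03 to 0.03. It cannot settle pairing, because in a group of 2 libraries the deviations mirror each other. Genes called in all were 5350 for tumors against OE normal lung, but 3130 with the block, 9620 without tumor 1, 3155 without OE normal 1 and 2996 without OE normal 2. Against WT lung they were 5371, but 2999 with the block, 9438 without tumor 1, 2734 without WT 1 and 2445 without WT 2. Between OE normal and WT lung 0 genes were called, but 38 with no filter and 290 without tumor 1. Scaling moved the split: 1844 higher and 3506 lower against OE normal lung became 2541 and 3150 with median-of-ratios, 1085 and 4883 with TPM, and 3390 and 2666 with quantile normalization, with medians over all genes of -0.11, 0.05, -0.33 and 0.13. Against WT lung 2115 higher and 3256 lower became 2501 and 3054, 1658 and 3724, and 3212 and 2662. Relative to that median the members' median difference from OE normal lung was 0.39 as deposited, 0.42, 0.39 and 0.00, and from WT lung 1.28, 1.29, 1.29 and 0.78.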
